A study of Drosophila melanogaster with 2 samples.

Results

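Candidate binding regions on the Y chromosome and on contigs that the dm6 assembly does not join to a main chromosome arm were examined here. They were taken as every row of the ranked peak list comparing the 2 replicates whose sequence was not 2L, 2R, 3L, 3R, 4 or X. This rule used only sequence names and no measured value. It gave 2413 candidates, 1.73% of the list, and the other 137068 lay on the 6 main arms. The members fell into 4 groups: 396 on the assembled Y, 252 on 101 contigs assigned to Y, 552 on 274 contigs assigned to X, and 1213 on 500 contigs named Un. The Un contigs are placed by the RefSeq assembly at the centre of chromosome 3 (409 candidates), at the centre of chromosome 2 (21), on X or Y without a choice between them (105), or nowhere (678).

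The libraries were chromatin immunoprecipitations from whole Drosophila melanogaster embryos aged 0 to 18 hours. The embryos were of a strain that carries CkIIalpha-i1, whose name makes it a partner of casein kinase II alpha, fused to enhanced green fluorescent protein (CkIIalpha-i1-GFP), and an antibody against the tag was used. There were 2 biological replicates of this 1 group. No control library was analysed here, and the labels give no sex, so the share of male embryos is not known. With 2 libraries of 1 group no difference between conditions can be tested. All comparisons below describe rows of the authors' lists, and rows of 1 list are not replicates.

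The Y chromosome of the fruit fly is almost wholly heterochromatin, with a few genes needed for sperm and long stretches of mobile elements and satellite repeats. Unplaced contigs are short assembled pieces of the same kind of sequence, which could not be joined because their repeats occur in many places. The tandem ribosomal RNA genes (rDNA) of X and Y belong to it too. They carry R1 elements, non-LTR retrotransposons that insert at a fixed site in the 28S gene, and the contigs also hold pieces of the satellite with a 359-bp unit of X and of the dodeca satellite of chromosome 3.

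The sequences that the strongest candidates rest on are shown first (dm6, plus strand of each contig, bases from the RefSeq Release 6 assembly). The strongest candidate off the main arms, at bases 613 to 717 of the X contig DS484057, lay in a stretch of 28S rRNA gene. The capitals mark the 20 bases after which the R1A1 element (the R1 family's reference name) is inserted in the gene 28SrRNA:CR45837 of the rDNA contig. The pair of lines shows these bases in the candidate and at that insertion:
chrX_DS484057v1_random:558-757: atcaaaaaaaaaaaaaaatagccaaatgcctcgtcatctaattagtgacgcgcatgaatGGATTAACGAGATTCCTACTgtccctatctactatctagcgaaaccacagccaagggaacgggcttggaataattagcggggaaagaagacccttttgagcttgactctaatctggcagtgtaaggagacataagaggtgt
chrUn_CP007120v1:49426-49545: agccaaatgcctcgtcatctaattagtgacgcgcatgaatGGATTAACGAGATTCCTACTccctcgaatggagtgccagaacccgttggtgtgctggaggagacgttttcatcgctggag

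Near-359-bp satellite peaks formed the largest named class among the candidates past the threshold described below. The capitals mark the longest word (20 bases, on either strand) that all 5 of them share, in the 3 of lowest IDR:
chrX_DS484633v1_random:34-317: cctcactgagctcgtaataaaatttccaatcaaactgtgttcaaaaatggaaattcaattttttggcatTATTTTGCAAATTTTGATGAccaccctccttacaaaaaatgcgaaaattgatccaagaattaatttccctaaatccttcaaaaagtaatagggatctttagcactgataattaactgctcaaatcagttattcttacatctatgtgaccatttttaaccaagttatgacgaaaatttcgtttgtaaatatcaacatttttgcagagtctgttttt
chrX_DS485735v1_random:821-1063: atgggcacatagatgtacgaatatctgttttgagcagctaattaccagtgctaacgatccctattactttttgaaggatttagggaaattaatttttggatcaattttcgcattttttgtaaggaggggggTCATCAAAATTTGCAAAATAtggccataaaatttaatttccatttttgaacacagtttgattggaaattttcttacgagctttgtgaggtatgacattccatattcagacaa
chrX_DS485550v1_random:263-546: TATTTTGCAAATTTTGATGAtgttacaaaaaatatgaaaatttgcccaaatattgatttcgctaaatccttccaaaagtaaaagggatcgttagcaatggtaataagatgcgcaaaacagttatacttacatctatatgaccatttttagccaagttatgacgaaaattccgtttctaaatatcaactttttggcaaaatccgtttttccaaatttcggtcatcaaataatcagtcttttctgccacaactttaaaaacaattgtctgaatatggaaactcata

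A contig of the chromosome 3 centre carried an 11-bp repeat of the dodeca type, shown with the 11 exact copies of 1 form of its unit in capitals. The last line is the middle of the strongest candidate on the rDNA contig, inside the R1A1 insertion, with the 10 bases on each side of the summit and the summit base in capitals:
chrUn_DS484148v1:243-392: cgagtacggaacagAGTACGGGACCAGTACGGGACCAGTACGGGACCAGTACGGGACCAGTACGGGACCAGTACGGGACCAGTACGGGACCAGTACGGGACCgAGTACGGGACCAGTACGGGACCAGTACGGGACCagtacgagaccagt
chrUn_CP007120v1:53265-53464: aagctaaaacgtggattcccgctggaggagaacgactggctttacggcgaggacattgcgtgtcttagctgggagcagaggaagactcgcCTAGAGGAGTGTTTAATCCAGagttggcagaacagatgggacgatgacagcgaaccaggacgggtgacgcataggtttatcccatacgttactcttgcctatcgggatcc

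Few candidates passed the authors' threshold, both off the main arms and on them. This threshold was a global irreproducible discovery rate (IDR, which is low where a peak ranks high in both of 2 lists) of 0.01 or less. A weak peak can thus miss it although its 2 signals are alike. It was met by 25 of the 2413 members (1.04%, exact 95% binomial interval 0.672 to 1.53) and by 681 of the 137068 main-arm candidates (0.497%, interval 0.460 to 0.535). Over all candidates it was met by 706 (0.506%). At an IDR of 0.05 or less the share was 4.35% on X contigs and 1.90% on Un contigs, against 1.14% of all candidates, and at 0.001 it was 0.543% and 0.0824%, against 0.113%. At 0.01 the X contigs had 10 such candidates (1.81%, interval 0.872 to 3.31), the Y contigs had 3 (1.19%, interval 0.246 to 3.44), and the Un contigs had 12 (0.989%, interval 0.512 to 1.72). The Y had 0 of 396, which allows a share of up to 0.758% by a limit of 3 counts and 0.927% by the exact interval, above the share of all candidates. The intervals cover counting error only and treat candidates as independent. However, 808 of the 2413 (33.5%) shared at least 50% of the 31-base words around their summit with a candidate on another member sequence. This share was 403 of 552 (73.0%) on X contigs, 28.6% on Un contigs, 13.9% on Y contigs and 5.81% on Y. The intervals for X contigs are thus the most affected.

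The 2 series-wide and 2 single-replicate ranked lists differed in how many such regions they held. The replicate 1 list held 868 candidates off the main arms (0.781% of 111177), and the replicate 2 list held 1973 (1.81% of 108922). Of these, 12 passed an IDR of 0.01 in replicate 1 (1.38%, against 0.409% of all its candidates) and 70 in replicate 2 (3.55%, against 0.585%). A single-replicate list comes from 1 library, so its IDR does not compare the 2 replicates. Its shares are therefore not the same measure as those of the comparison list. In replicate 2 the X contigs had 38 of 609 past the threshold (6.24%, interval 4.45 to 8.46), the Y contigs 9 of 192 (4.69%) and the Un contigs 23 of 938 (2.45%). In replicate 1 the X contigs had 3 of 234 (1.28%), the Y contigs 3 of 88 (3.41%) and the Un contigs 6 of 452 (1.33%). The pooled list had 47 of 2734 past the threshold (1.72%, against 0.688% of all), none of them among its 459 candidates on Y. The Y had 0 past the threshold in both single-replicate lists too, of 94 in replicate 1 and 234 in replicate 2.

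**Figure D1:**
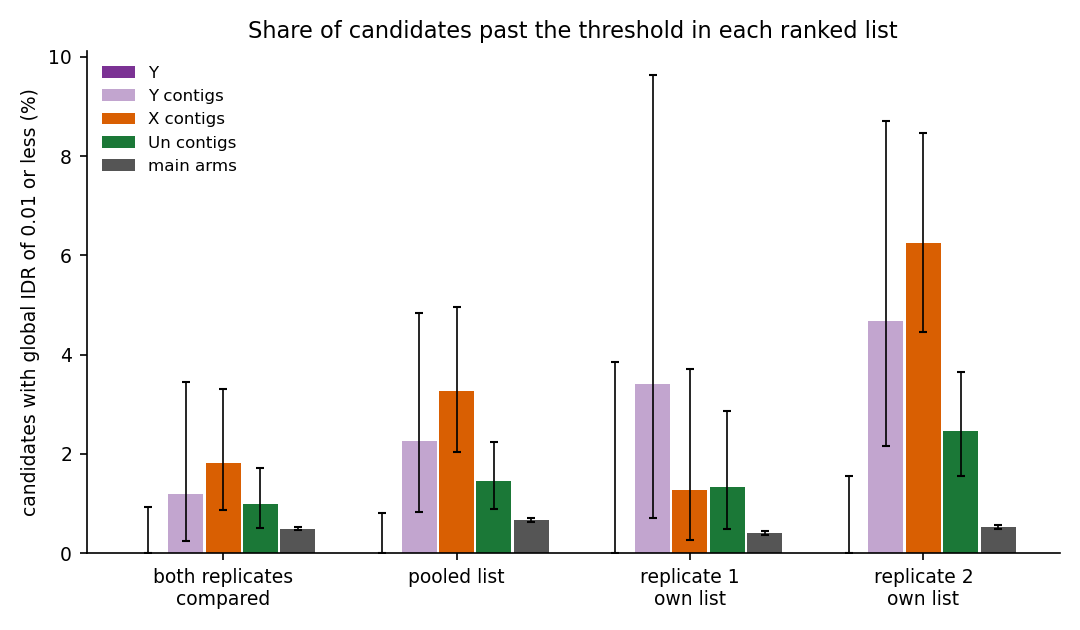
Percentage of candidates with a global IDR of 0.01 or less (bars, linear axis from 0) in each ranked list, for the 4 groups and the main arms, with exact 95% binomial intervals as error bars. The Y has no bar because its count was 0 in all 4 lists, and the highest bar is the X contigs in the replicate 2 list, at 6.24%. The IDR of a single-replicate list does not compare the 2 replicates.

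The authors' thresholded lists kept only some of these rows, and the split followed the contig names. Of the rows past an IDR of 0.01 in the comparison list, 10 of 10 on X contigs were also in the thresholded list, against 0 of 3 on Y contigs, 0 of 12 on Un contigs and 653 of 681 on the main arms. Over all candidates 663 rows were kept (0.475%). The pooled list kept 21 of 21 on X contigs, 0 of 6 on Y contigs, 0 of 20 on Un contigs and 923 of 965 on the main arms. Replicate 1 kept 3 of 3 on X contigs, 0 of 3 on Y contigs and 0 of 6 on Un contigs, and replicate 2 kept 38 of 38 on X contigs, 0 of 9 on Y contigs and 0 of 23 on Un contigs. What removed the others is not given in the sources used here.

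The strongest candidate, on the X contig DS484057, ranked 8 in the whole list by the row's own signal value, which was 436.0. That value is separate from the signals of the 2 replicates, and all are scores on a scale that is not stated. The signal was 126.2 in replicate 1 and 321.2 in replicate 2, and the candidate passed the threshold in both replicates' own lists. The candidate matched the rDNA contig over 106 bp with 99.1% identity. The match covered bases 2689 to 2794 of 28SrRNA:CR45844, an intact copy of 3970 bp. The stretch of 28S gene in the contig began at base 576, just after a run of 15 adenines, and the 20 bases in capitals above lay at bases 617 to 636. The 28S match ran on past them to base 809, so R1A1 did not directly follow these bases here. The same 20 bases end the truncated 28SrRNA:CR45837, where R1A1 follows at bases 49487 to 53553 of the rDNA contig. The same X contig also held R1A1 sequence at bases 1293 to 2364 (97.9% identity over 1072 bp).

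The rDNA contig itself (CP007120, 76973 bp, placed on X or Y) held 22 candidates, and its strongest lay inside the R1A1 element and not in rRNA. The candidate at bases 53223 to 53506 had signals of 48.6 in replicate 1 and 96.2 in replicate 2 and a global IDR of 0.000908. A second, at bases 52151 to 52434, had 30.9 and 36.7 and an IDR of 0.00720. Both were inside the insertion that follows 28SrRNA:CR45837. There were 3 other candidates in that insertion, with signals of 16.3 to 21.9 in replicate 1 and 24.6 to 32.7 in replicate 2, and they missed the threshold. Those at bases 51304 to 51587 and 51512 to 51795 overlap and had the same signals, 21.9 in replicate 1 and 32.7 in replicate 2. Only 1 candidate lay in an annotated pre-rRNA, just after the 18S gene of pre-rRNA:CR45846, a unit with no annotated 28S gene (5.32 in replicate 1 and 7.53 in replicate 2). The pseudogenes held 5. In 28SrRNA-Psi:CR45851, in a piece of R1A1, the signal was 8.92 in replicate 1 and 56.1 in replicate 2. The 3 in 28SrRNA-Psi:CR40596 had 2.15, 7.98 and 6.11 in replicate 1 and 29.8, 13.5 and 6.79 in replicate 2, in the same order. That in 28SrRNA-Psi:CR45848 had 2.20 in replicate 1 and 8.41 in replicate 2. Replicate 2 was thus higher at all 5, by 1.11 to 13.8 times. Replicate 2 was higher at 20 of the 22 candidates of this contig, against 48.8% of all candidates. Overlapping rows with the same signals were counted separately here, both in that insertion and at bases 7429 to 7712 and 7628 to 7911.

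Peaks in the X satellite made up 5 of the 10 X-contig candidates past the threshold. This class held 152 of all 552 X-contig candidates (27.5%), and 3.29% of the 152 passed, against 1.81% over the X contigs. The local sequence of these 5 repeated itself at a distance of 338 to 359 bp with 64.2 to 78.5% identity. The strongest, on DS484633 at bases 34 to 317, had signals of 51.6 in replicate 1 and 136.8 in replicate 2. It was followed by DS485735 (bases 821 to 1063), with 46.3 in replicate 1 and 69.7 in replicate 2. On DS485550 (bases 263 to 546) the signals were closer, at 52.0 in replicate 1 and 57.4 in replicate 2. DS484850 (bases 1 to 267) had 41.0 in replicate 1 and 67.9 in replicate 2, and DS484672 (bases 1 to 265) had 32.9 and 62.5. The first 2 of these 5 passed the threshold in both replicates' own lists, and the other 3 passed it only in that of replicate 2. The shared 20-base word in capitals occurred on 98 of the 104 X contigs with a candidate of this class and on 55 of the 170 other X contigs.

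The other 4 X-contig candidates past the threshold were 2 in R1A1 and 2 on 1 contig. Those in R1A1 lay on DS484187 (bases 1898 to 2181), with 36.8 in replicate 1 and 48.1 in replicate 2, and on DS485266 (bases 876 to 1159), with 28.4 and 36.8. On DS485647, bases 803 to 1086 matched baggins, a mobile element, with 98.7% identity over 228 bp. The signal there was 43.7 in replicate 1 and 124.3 in replicate 2. Bases 214 to 497 of the same contig matched no class and had 38.0 and 37.2. Of these 4, 3 were higher in replicate 2.

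On the Y contigs 2 of the 3 candidates past the threshold matched mobile elements. DS485048 (bases 734 to 1017) matched gypsy12, an LTR retrotransposon, with 91.2% identity and had 40.9 in replicate 1 and 64.6 in replicate 2. DS483677 (bases 10344 to 10627) matched HeT-A, a retrotransposon that forms fly telomeres, with 98.2% identity, and had 25.8 in replicate 1 and 56.5 in replicate 2. DS485552 (bases 1 to 230) matched no class and had 28.9 in replicate 1 and 46.3 in replicate 2. Replicate 2 was higher at all 3.

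The 12 candidates past the threshold on Un contigs were of mixed sequence. Besides the 2 on the rDNA contig, 3 lay in short tandem repeats. DS484148 (bases 176 to 459), the dodeca-type array shown above, had 46.1 in replicate 1 and 53.2 in replicate 2. CP007100 (bases 6128 to 6411), a repeat of AAGGC, had 29.2 in replicate 1 and 63.8 in replicate 2, and DS485906 (bases 88 to 371), a repeat of AAGAGAG, had 32.4 and 49.1. DS485995 (bases 691 to 974) matched Rt1b, a non-LTR element, with 98.6% identity, and had 38.9 in replicate 1 and 47.6 in replicate 2. The other 6 matched no class. All 31-base words around the summit were unique in the reference for 3 of them. These were DS484009 (bases 1935 to 2218), with 41.2 in replicate 1 and 50.7 in replicate 2, and a pair on DS483781 (bases 143 to 426 and 350 to 633). The members of that pair rest on the same input peaks, so both have 27.1 in replicate 1 and 41.4 in replicate 2. DS485579 (bases 367 to 650) had 35.4 in replicate 1 and 51.9 in replicate 2. DS483906 (bases 2983 to 3266) had 40.5 and 39.8. DS485071 (bases 840 to 1123), on a contig placed on X or Y, was the only one of the 25 that was at least 2 times higher in replicate 1, with 55.3 there and 27.3 in replicate 2.

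Over the 25 candidates past the threshold the signals spanned 25.8 to 126.2 in replicate 1 (median 38.9) and 27.3 to 321.2 in replicate 2 (median 51.9). Replicate 2 was higher at 22 of 25 (88.0%), with a median log2 ratio of replicate 1 over replicate 2 of −0.60. At the 681 main-arm candidates past the threshold replicate 2 was higher at 418 (61.4%), with a median of −0.15. By sequence, 5 of the 25 were rRNA gene or R1A1, 8 tandem repeats, 4 other mobile elements and 8 of no class. Among all 2413 members R1A1 took 10.5%, rRNA genes 1.12%, other single mobile families 39.6% and no class 25.7%. Tandem repeats of 11 or 12 bp took 10.6% of members, those of 330 to 370 bp 6.88% and other tandems 1.08%. All 25 overlapped a candidate in both replicates' own ranked lists. Of the 25, 3 were in the thresholded list of replicate 1 and 8 in that of replicate 2, all of them on X contigs. Candidates on Y contigs and Un contigs could not be counted there, because those lists held no row on such contigs, whatever its IDR.

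**Figure D2:**
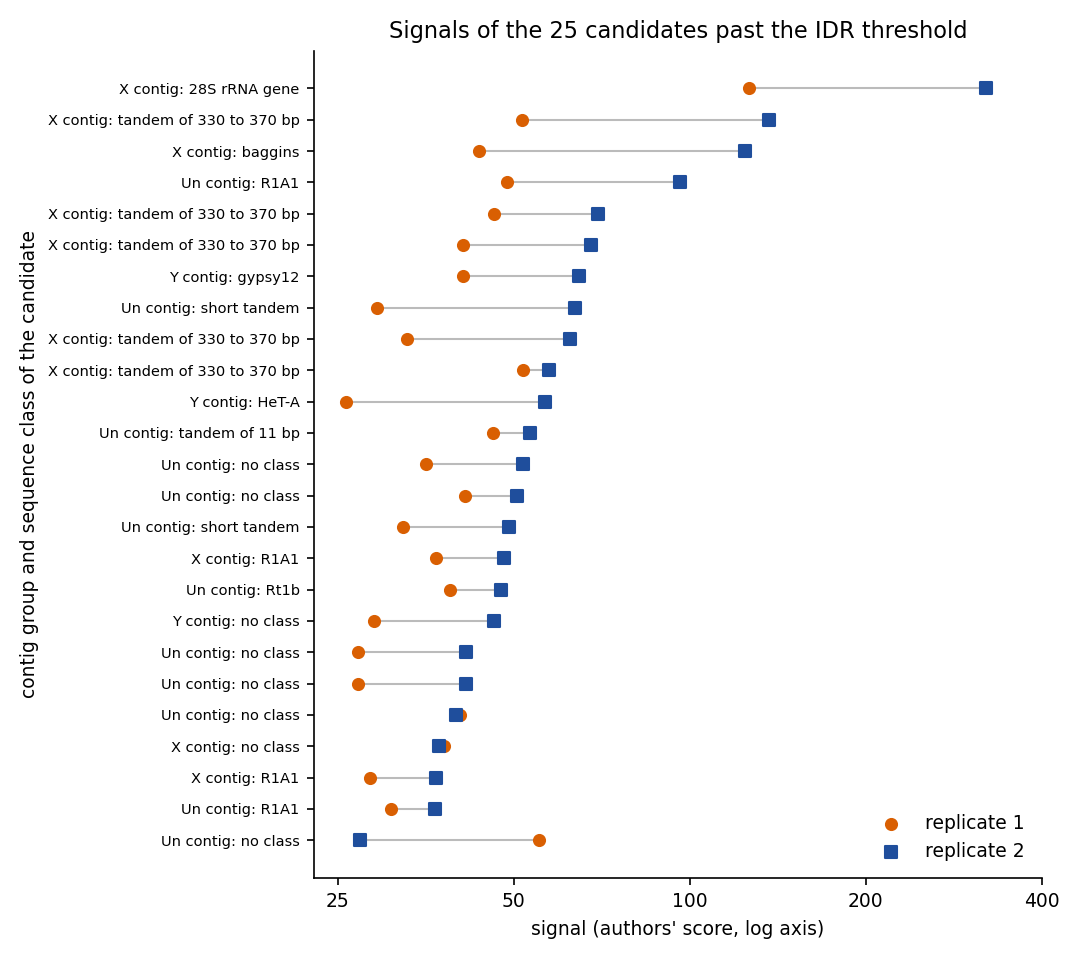
Signals (authors' score, logarithmic horizontal axis) of replicate 1 (circles) and replicate 2 (squares) at each of the 25 candidates past the IDR threshold, ordered by the replicate 2 signal and named by contig group and sequence class. The squares lie to the right of the circles at 22 of the 25, and the 28S rRNA gene candidate at the top stands apart with 126.2 and 321.2.

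Across all members the signal was lower in replicate 1 than in replicate 2, which was not so on the main arms. Replicate 2 was higher at 1587 of the 2413 members (65.8%), against 66545 of 137068 main-arm candidates (48.5%) and 48.8% of all candidates. The median log2 ratio of replicate 1 over replicate 2 was −0.60 on X contigs (quartiles −1.34 and 0.10), −0.42 on Y contigs, −0.32 on Un contigs and −0.30 on Y. On the main arms it was 0.04 (quartiles −0.67 and 0.74). A signal at least 2 times higher in replicate 2 was found at 636 members (26.4%, against 16.5% of all candidates), and the opposite at 187 (7.75%, against 17.9%). On X contigs the first share was 35.9%. The ratios take the 2 replicates' scores as being on 1 scale, which the sources used here do not state, and read depth is unknown.

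Median signals on the contigs were low beside the main arms in both replicates. X contigs had 6.0 in replicate 1 and 8.85 in replicate 2, Y contigs 5.42 and 6.47, Un contigs 5.17 and 6.59, Y 3.93 and 4.83, and the main arms 10.1 and 9.75. The X contigs were thus the highest of the 4 groups in both replicates and the assembled Y the lowest. The highest on Y were 16.9 in replicate 1 and 39.2 in replicate 2, at different candidates. The rank correlation of the 2 replicates' signals across candidates (Spearman) was 0.11 on Y (396 candidates), 0.45 on Y contigs (252), 0.32 on X contigs (552), 0.42 on Un contigs (1213) and 0.19 on the main arms (137068). These describe rows of 1 list, which share libraries and, on contigs, sequence.

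**Figure D3:**
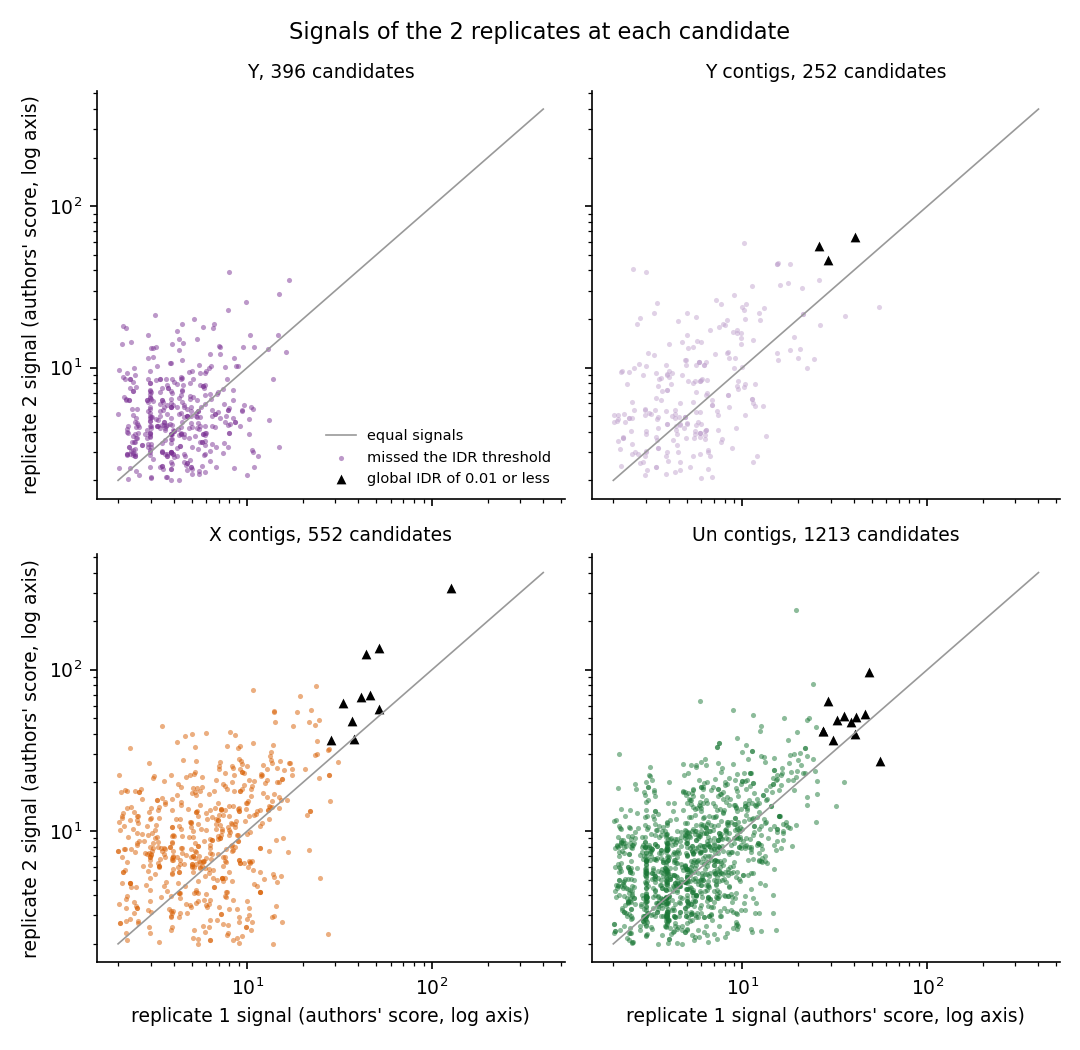
Signal of replicate 1 (horizontal) against replicate 2 (vertical), both logarithmic, for every candidate of the 4 groups. Triangles are candidates with a global IDR of 0.01 or less and the line marks equal signals. More points lie above the line than below it in each panel (62.1% on Y, 63.5% on Y contigs, 71.9% on X contigs and 64.6% on Un contigs), and no candidate on Y is a triangle.

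At signals of 5 or more the ratio lay lower on the contigs and Y than on the main arms at the same level. A candidate enters a high level through the larger of its signals and no signal was below 2.00, so the size of the ratio is bounded at low levels and can be larger at high ones. Levels are therefore set only beside the main arms at that level. Where the larger of the 2 signals was 2 to under 5, the median log2 ratio was −0.03 over all members (552 candidates) and −0.02 on the main arms. From 10 to under 20 it was −0.76 over members (574 candidates) and 0.04 on the main arms. From 20 to under 50 it was −1.13 over members, with replicate 2 higher at 199 of 225, and 0.32 on the main arms. At 50 or more replicate 2 was higher at 29 of 31 members, with a median of −1.35, and at 304 of 447 main-arm candidates (68.0%), with a median of −0.35. Each of the 4 groups was below the main arms at every level from 5 up to 50.

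**Figure D4:**
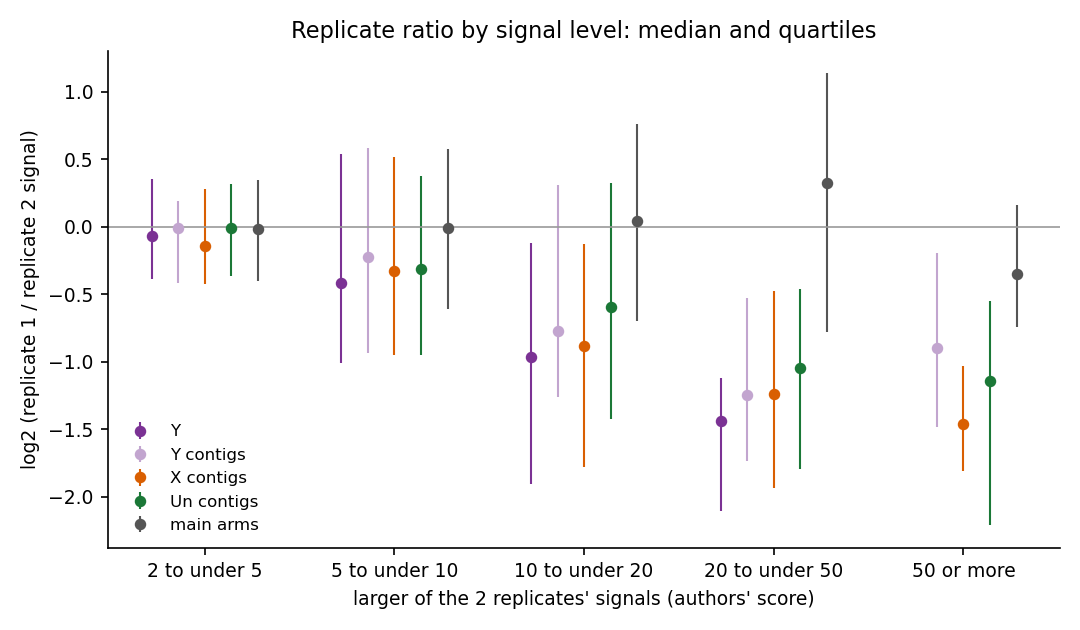
Median log2 ratio of replicate 1 over replicate 2 signal (points) with quartiles (bars) against the larger of the 2 signals in 5 steps, for the 4 groups and the main arms. The groups lie near 0 below a signal of 5 and between −1.05 and −1.44 from 20 to under 50, where Y has only 6 candidates and the main arms are at 0.32. The Y has no candidate at 50 or more.

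Of the 3 Un-contig candidates of highest signal value, only that on the rDNA contig at bases 53223 to 53506 met the threshold. The highest was on DS485995, the contig with the Rt1b candidate. Its bases 48 to 331 matched no class and had 19.6 in replicate 1 and 233.8 in replicate 2. The other was an Rt1b region on DS485339 (bases 519 to 802, 98.9% identity), with 24.1 in replicate 1 and 81.5 in replicate 2.

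Most members lay in repeated sequence. In the windows of 100 bases on each side of the summit, a median of 18.1% of the 31-base words occurred once in the reference on X contigs, 26.3% on Un contigs, 33.0% on Y contigs and 49.7% on Y, and 100% on the main arms. Under 50% of the words were unique for 1799 members (74.6%) and for 2904 main-arm candidates (2.12%). Among windows of this kind the median log2 ratio was −0.60 on X contigs, −0.56 on Y contigs, −0.33 on Un contigs and −0.31 on Y, and −0.21 on the main arms, where replicate 2 was higher at 59.1%. Where every word was unique the median was −0.29 over 98 members (0.07 over the 54 on Y and −0.46 over the 37 on Un contigs) and 0.05 on the main arms. The part of repeated sequence in these ratios was not tested.

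The class of sequence differed between the groups. On X contigs R1A1 held 224 of 552 candidates (40.6%), while 28.1% of 284-bp tiles cut from all X contigs of the reference were R1A1. Tandem repeats with a period of 330 to 370 bp held 152 (27.5%, against 31.8% of tiles), on 104 contigs. Their most frequent periods were 359 bp (74 candidates) and 358 bp (47). On Un contigs tandem repeats of 11 or 12 bp held 255 of 1213 candidates (21.0%, against 6.96% of tiles), and other single mobile families held 524 (43.2%, against 54.3%). On Y and the Y contigs other mobile families were the largest class, with 239 of 396 (60.4%, against 66.9% of tiles) and 161 of 252 (63.9%, against 67% of tiles). Sequence of no class took 19.7% of candidates on X contigs, 24.9% on Un contigs, 29.4% on Y contigs and 33.8% on Y.

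**Figure D5:**
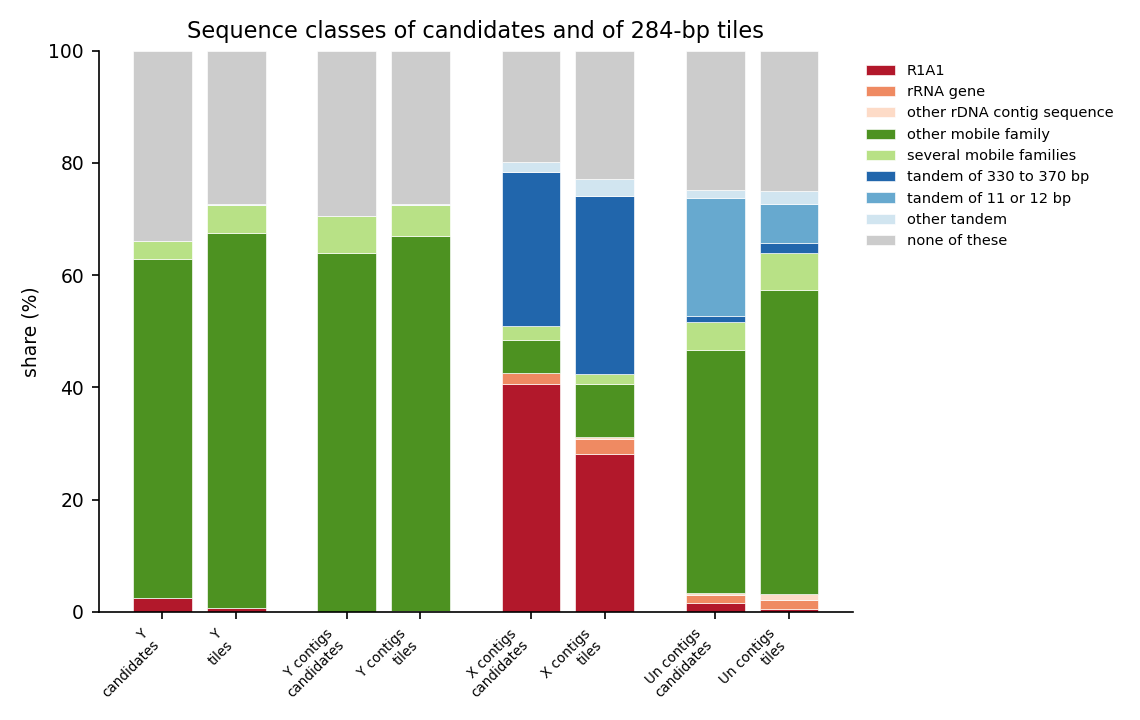
Share (%) of candidates and of 284-bp tiles of the reference in each sequence class, for the 4 groups. R1A1 and the near-359-bp tandem together take most of the X-contig bar, and the 11 or 12-bp tandem is seen on Un contigs, at 21.0% of candidates and 6.96% of tiles.

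R1A1 candidates were found along the whole element, and the ratio was below 0 in each part of it. Over all members R1A1 had 254 candidates, with median signals of 5.86 in replicate 1 and 9.02 in replicate 2, and replicate 2 was higher at 188 (74.0%). Of the 253 that could be placed on the longest annotated copy, 46 lay in its first 1000 bp, 38, 44, 53 and 55 in the next 4 such stretches, and 17 beyond 5000 bp. The median log2 ratio of these parts ran from −0.84 to −0.27. On the main arms 71 candidates lay in R1A1, with medians of 7.21 in replicate 1 and 8.17 in replicate 2, and replicate 2 was higher at 37 (52.1%). Of the 27 members in rRNA genes, 21 matched 28S, 2 matched 18S, 1 matched 2S and 5.8S, and 3 other parts. Replicate 2 was higher at 23 of these 27.

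The satellite classes were at similar levels. Near-359-bp candidates on X contigs had medians of 6.32 in replicate 1 and 10.2 in replicate 2, a median GC content of 30.3% and replicate 2 higher at 109 of 152 (71.7%). The 11-bp unit ACCAGTACGGG took 223 candidates on 64 contigs, all placed at the centre of chromosome 3, with medians of 6.32 in replicate 1 and 9.27 in replicate 2, a GC content of 61.2% and replicate 2 higher at 158. The 12-bp unit ACCGAGTACGGG took 31 candidates on 11 contigs of the same place, with medians of 7.43 in replicate 1 and 9.41 in replicate 2 and replicate 2 higher at 18. On the main arms 96 candidates had a unit of 11 or 12 bp, with medians of 5.77 and 9.05 and replicate 2 higher at 67 (69.8%). Candidates in other single mobile families had a median log2 ratio of −0.25 over 956 members and −0.24 over 4208 on the main arms.

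Around the summits the median GC content was 40.3% on X contigs, 42.3% on Y, 44.3% on Y contigs, 47.3% on Un contigs and 46.8% on the main arms. Simple satellite units, each 3 times in a row on either strand, were rare there. The unit AAGAG was in 4 members (0.166%) and in 3 main-arm candidates. AAGAC was in 4 members too, AATAT was in 1, and so was AACAC. No member held AATAG, no member held AAAAC, which was in 25 main-arm candidates, and none held AATAAC. The word ACAGTGG (both strands) was in 64 members (2.65%) and in 2.87% of main-arm candidates. TATCGAT was in 39 (1.62%) and in 2.19%. On X contigs TATCGAT was in 1 of 552 candidates. A match describes these letters only, and no match says nothing of a factor.

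Candidates were sparser than on the main arms. There were 0.592 for each kb of known bases on X contigs, 0.322 on Un contigs, 0.317 on Y contigs and 0.116 on Y, against 1.03 on the main arms. Of the contigs with a candidate, 143 of 274 X contigs, 55 of 101 Y contigs and 267 of 500 Un contigs had only 1. The most were on DS483562, a contig of 50625 bp placed on X or Y, with 42 candidates, medians of 7.43 in replicate 1 and 9.17 in replicate 2, and replicate 2 higher at 25. On CP007077, at the centre of chromosome 3, replicate 2 was higher at 24 of 32. CP007081, with 30 candidates, holds klhl10, a gene known for its role in sperm maturation. There 21 candidates lay within the gene, with at most 10.3 in replicate 1 and 17.5 in replicate 2, and replicate 2 was higher at 17. CP007085 had 27 candidates and a median log2 ratio of 0.03.

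On X contigs the leaders were CP007103, with 22 candidates, DS483784 (9), DS483851 (8), CP007104 (7) and DS483885 (7). Replicate 2 was higher at 21 of 22 on CP007103 (medians 5.29 in replicate 1 and 10.5 in replicate 2) and at 8 of 8 on DS483851, but at 4 of 9 on DS483784. On Y contigs they were CP007108 (24), CP007107 (20), CP007111 (15), CP007117 (11) and CP007109 (9). CP007111 went the other way, with medians of 11.5 in replicate 1 and 11.2 in replicate 2, highest signals of 54.7 in replicate 1 and 33.7 in replicate 2, and replicate 2 higher at 5 of 15. None of these 10 contigs had a candidate past the threshold.

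The Y chromosome's candidates were uneven along its 3667352 bp. Bases 1 to 1200000 held 230 of the 396, and bases 1200001 to 1600000 held 2, although 189.9 and 199.8 kb of the 2 stretches of 200 kb there are known bases. Of all, 145 (36.6%) had their summit in one of 23 annotated protein-coding genes, which cover 28% of the sequence. Only 8 lay in the 80 annotated mobile elements of Y, although similarity put 262 in a mobile family.

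Among the Y genes listed here, the dynein genes kl-3, kl-5 and kl-2 held the most candidates. These counts are not scaled by gene length, which differs widely. The giant dynein gene kl-3 had 47 in 226.8 kb, with at most 11.4 in replicate 1 and 15 in replicate 2. Replicate 2 was higher at 33 of them. The dynein gene kl-5 had 38 in 115.2 kb, with at most 16.3 and 12.4, and replicate 2 was higher at 23. The dynein gene kl-2 had 15 in 91.1 kb, with at most 12.9 and 13.1, and replicate 2 was higher at 11. Ppr-Y had 14 in 248.3 kb (at most 13.2 in replicate 1 and 5.85 in replicate 2) and ORY 11 in 56.6 kb (8.54 and 5.48). WDY had 8 in 214.4 kb (8.39 and 13.3) and PRY 6 in 45.9 kb (10.2 and 3.86). ARY (1.62 kb), FDY (1.74 kb) and CCY (16.9 kb) had 2 each, with at most 5.43 in either replicate. The 2 in FDY had the same signals, 5.43 in replicate 1 and 5.42 in replicate 2, and were counted separately. No candidate lay in Pp1-Y1 or Pp1-Y2, genes of 0.954 and 1.29 kb for phosphatase subunits. The Su(Ste) repeats, which give rise to small RNAs that silence Stellate in the testis, had 5 in their annotated copies, with at most 10.8 in replicate 1 and 25.3 in replicate 2. None of these reached the threshold.

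The 3 strongest candidates on Y lay close together and overlapped no annotated gene. Bases 975743 to 976026 had 16.9 in replicate 1 and 34.8 in replicate 2 and matched no class, with no unique 31-base word around the summit. Bases 957743 to 958026 matched R1A1 with 98.2% identity and had 8.0 in replicate 1 and 39.2 in replicate 2. Bases 959640 to 959923 matched 1360, a DNA transposon, with 98.5% identity over 194 bp, and had 14.8 in replicate 1 and 28.6 in replicate 2. Replicate 2 was 1.93 to 4.91 times as high as replicate 1, and none passed the threshold.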

How the data were processed

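Chromatin immunoprecipitation with sequencing was analysed for 2 biological replicates of 1 group, as 8 peak lists deposited by the authors: a ranked and a thresholded list for each replicate and for 2 comparisons over the series. Per the labels' protocols, chromatin was sheared to fragments of 200 to 800 bp. Coordinates are on dm6, per the deposited file records, and no aligner, peak caller or control is named in the sources used here. In the ranked lists the authors' signal is a score per peak of unstated scale. Each row of the comparison list has its own signal value, used here for ranking, beside the signals of its 2 inputs. The deposited −log10 of the global IDR is high where a peak ranks high in both inputs. The inputs of the comparison list held 86687 peaks identical to replicate 1's own list and 86407 identical to replicate 2's, which identified its 2 signal columns. Identity here means equal positions and signals equal to 5 decimals.

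Contig names were matched to the RefSeq Release 6 sequences by the constant step between their accession numbers. For all 1140 contigs in the ranked lists the chromosome agreed and every peak ended within the contig's length. Windows held 100 bases on each side of a summit. A 31-base word was called unique if it occurred once in the reference, on either strand. Tandem periods of 2 to 600 bp needed 60% identity between a window of 700 bases on each side and itself shifted. Candidates were compared with 5734 annotated mobile elements and the rDNA contig by BLAST 2.17.0 (at least 80 bp and 80% identity), and a similarity took precedence over a tandem period. Gene models came from Ensembl release 115 (BDGP6.54). Intervals for shares are exact (Clopper-Pearson, 95%), and the upper limit for a count of 0 is 3 counts of the total. Read depth is unknown, so no interval uses it. No test was made, because 2 libraries of 1 group allow none between conditions. Regions were named if past an IDR of 0.01, or among the 3 of highest signal in a group, contigs if among the 5 with most candidates, and 12 Y genes and the Su(Ste) repeats by list. The members and lists were chosen with earlier results of these data known. Sequence helpers were tested on simulated data. The scripts ran on Python 3.11.15 with scipy 1.17.1, pandas 2.3.3, numpy 2.4.6, numba 0.67.0 and matplotlib 3.10.9.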

Additional observations from a re-analysis of the deposited data

How the results depend on the processing

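The alternatives were fixed with the tests, except 2 added after seeing the data (mostly repeated windows only, and rows that share both input peaks counted once). The share past the threshold at an IDR of 0.05 was 4.35% on X contigs and 1.90% on Un contigs (1.14% of all candidates), and at an IDR of 0.001 it was 0.543% on X contigs, 0.0824% on Un contigs and 0.0% on Y contigs (0.113% of all). In the conservative thresholded list it was 0.0% on both Y contigs and Un contigs. A replicate's own list does not compare the 2 replicates. With 1 such list in place of the comparison, the share ranged from 1.28 to 6.24% on X contigs, 3.41 to 4.69% on Y contigs and 1.33 to 2.45% on Un contigs, and was 0.0% on Y. The number of candidates then ranged from 94 to 234 on Y, 88 to 192 on Y contigs, 234 to 609 on X contigs and 452 to 938 on Un contigs. The higher number was replicate 2's in each group. The median log2 ratio stayed below 0 in all 4 groups under all 6 alternatives. Among candidates whose larger signal was at or above 12.8, the median over all candidates, it was −1.56 on Y (36 candidates), −1.14 on Y contigs, −1.13 on X contigs and −0.97 on Un contigs, and 0.11 on the main arms. That choice uses the larger of the 2 signals compared, which by itself can widen the ratio in either direction. Median GC content moved to 45.5% on Un contigs with 250 bp on each side. The other alternatives moved no share, median or GC content out of the interval of the reported value and no number by over 1.5 times. The cause of these changes was not tested. No paired analysis was possible because there is only 1 group. With no control library and unknown depth, a weak region on a contig cannot be told from background in these lists.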

Other observations

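Of the 2413 members, 535 (22.2%) overlapped a candidate in both replicates' own ranked lists, 276 in that of replicate 1 only (11.4%), 669 in that of replicate 2 only (27.7%) and 933 in neither (38.7%). Of all candidates 49.1% were in both, 19.6% in that of replicate 1 only, 19.5% in that of replicate 2 only and 11.7% in neither. The share in both was 28.4% on X contigs, 25.8% on Y contigs, 22.8% on Un contigs and 9.09% on Y, against 49.6% on the main arms. Beside another row, 324 members rested on the same pair of input peaks.

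Besides klhl10 and the rRNA genes, 3 genes annotated on contigs held a candidate, 1 each. CG40635 had 3.99 in replicate 1 and 14.1 in replicate 2. The non-coding RNA gene lncRNA:CR40719 had 7.50 in replicate 1 and 17.9 in replicate 2, and CG41561 had 3.49 and 3.89. On Y contigs the telomeric element TART-A was the most frequent family, and on Un contigs GATE (50 candidates), G2 (49) and HeT-A (31) were. G2 candidates had a median log2 ratio of replicate 1 over replicate 2 of 0.14, with replicate 2 higher at 24 of 49. Those of HeT-A had −0.44, with replicate 2 higher at 20 of 31.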
